A study of Mus musculus with 8 samples.

Results

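The comparison set RNA of Ascl2 null small-intestinal organoids against RNA of VillinCreERT2 control organoids on 1 array with 2 colours. A second array of the same slide carried control RNA in both colours (a self-self array) and was subtracted probe by probe. These are 2 of the 8 arrays in the series, and 1 of the 8 holds Ascl2 null RNA, so every value below is a description of these RNAs without a replicate check or a test. Gene values are log2 differences: the Cy5 over Cy3 ratio of the Ascl2 null array less that of the self-self array. A value of 1 is 2-fold higher in Ascl2 null organoids.

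Ascl2 encodes a bHLH (basic helix-loop-helix) protein that switches on genes in crypt base columnar (CBC) cells, the Lgr5-expressing stem cells at the bottom of intestinal crypts. Wnt and R-spondin signals sustain these cells, and Notch signalling decides whether their daughters become absorptive enterocytes or secretory cells (Paneth, goblet, tuft and enteroendocrine cells). Enteroendocrine cells pass through a short precursor stage marked by Neurog3 and then express peptide hormones. Organoids are crypt-like epithelial structures grown from intestinal stem cells in a gel, and they hold stem cells together with these differentiated types.

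The Ascl2 null RNA was labelled with Cy5. It came from small-intestinal organoids whose genotype field reads Ascl2null and which received a 16 h pulse of 4OH-tamoxifen, given in the labels as deleting Ascl2. The control RNA was labelled with Cy3 on that array and with both dyes on the self-self array. Its genotype field reads VillinCreERT2, and it received the same 16 h pulse. In the self-self array's description field the organoids are instead called Ascl2loxp/loxp, so whether the control carried loxP sites at Ascl2 is uncertain. VillinCreERT2 is a Cre recombinase fused to a modified oestrogen receptor and driven by the villin promoter, which is active throughout the intestinal epithelium, and 4OH-tamoxifen switches it on. Age, sex, strain, the number of animals behind each culture, the share of recombined cells and the time between the pulse and RNA extraction in experiment 3 are not stated in the labels. For both arrays 500 ng of total RNA was labelled.

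On these arrays between 55.9% and 59.9% of 45018 spots were well above background in each channel, and no spot was saturated. The control RNA in Cy3 agreed closely between the arrays (Pearson r = 0.994 across 15663 genes well above background in all 4 channels; genes are not independent replicates). For Cy5, Ascl2 null on one array against control on the other, r was 0.973. As a technical comparison, the self-self array of experiment 2, made with organoids transduced with dsGFP, was set against the self-self array of experiment 3, a difference that holds only dye and hybridisation effects. Its SD over genes was 0.33, against 0.45 for Ascl2 null.

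The control and Ascl2 null RNAs differed in sex-linked transcripts. The Y-linked genes Eif2s3y, Ddx3y, Kdm5d and Rbmy were well above background in all 3 control channels and not in the Ascl2 null RNA. Eif2s3y, a translation initiation subunit, gave a background-subtracted intensity of 20 in the Ascl2 null channel, 1179 for the control in Cy3 on the same array, and 1180 and 998 for the control in Cy3 and Cy5 on the self-self array. It was at least 11.8-fold lower, Rbmy at least 5.47-fold, Ddx3y at least 3.96-fold and Kdm5d at least 1.9-fold lower. Xist, the RNA that silences an X chromosome, has 2 probes. One was well above background in the Ascl2 null RNA and in no control channel, at least 4.3-fold higher, and the other, detected in 2 of the 3 control channels as well, gave 0.49. The genotype and any difference between the founding animals or cultures therefore cannot be told apart in the values below. A bound such as "at least 11.8-fold" compares the same dye on both arrays. The undetected RNA is set at its own signal or at the lowest signal called well above background in that channel, whichever is higher. That lowest signal is taken over all probes and is not the detection limit of the probe itself, so bounds are approximate.

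Over 19325 genes, 410 reached 2-fold upward in Ascl2 null organoids (2.12%) and 305 reached it downward (1.58%). In the technical comparison 14 genes reached that size upward (0.0727%) and 176 downward (0.914%). That comparison spans 2 experiments, while the Ascl2 null values subtract an array of the same slide. Its counts are therefore a rough guide to dye effects and do not measure the dye error in the Ascl2 null values. The experiment 3 self-self array alone held 22 genes upward and 7 downward. At least 4-fold differences numbered 101 upward and 28 downward, against 0 and 5 in the technical comparison. The distribution had its long tail on the higher side, up to 6.70.

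**Figure D1:**
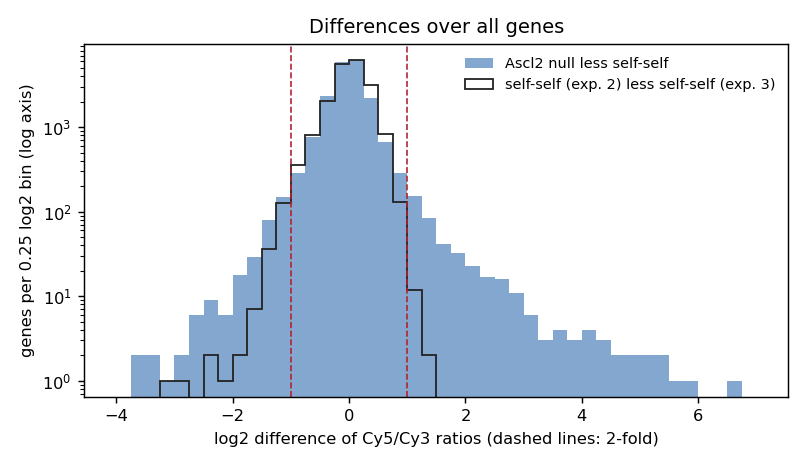
Histogram of log2 differences over all genes for Ascl2 null less self-self (filled) and for the 2 self-self arrays against each other (line), with a log count axis and dashed lines at 2-fold. The filled tail reaches 6.70 upward, while the technical comparison holds 14 genes above 1 and 176 below -1.

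Ascl2 itself was lower but still detected. Its single probe (mm9 chr7:150154439-150154498) gave a background-subtracted intensity of 255 in the Ascl2 null channel, 722 for the control on the same array, and 804 and 606 for the control in Cy3 and Cy5 on the self-self array. The difference was -0.80, a 1.75-fold lower level, under the 2-fold mark. Without the subtraction it was -1.07, and Cy5 against Cy5 it was -0.93. By the scanner ratio it was -1.11 and in the authors' deposited table -1.12, both past the 2-fold mark. The technical comparison gave 0.27 for the same probe. The labels do not say which part of Ascl2 the deletion removes, so the probe may lie outside it and checks the labels only in part. Of 19 measured genes around Ascl2 on distal chromosome 7, Igf2, a growth factor, was 2-fold lower or more (-2.09, with its probes from -2.09 to -0.98), and Osbpl5 followed at -0.88. The median of that list was -0.00.

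Peptide hormone genes were higher in Ascl2 null organoids, and the transcription factors of early enteroendocrine precursors were lower. Of 24 hormone genes (with the amine-making enzymes Tph1 and Ddc) 20 were measured, 9 of which were 2-fold higher or more and 0 were 2-fold lower or more, with a median of 0.41. Of the 8 early factors, all measured, 6 were at least 2-fold lower and 0 higher, with a median of -1.91. Over all genes the median was 0.00, with 2.12% at least 2-fold higher, 1.58% at least 2-fold lower and 50.3% above 0. These shares are the background for every list count below. The technical comparison gave medians of 0.04 and 0.19 for these lists. In RNA from whole organoids, more cells of a type and more RNA per cell cannot be told apart.

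The hormones with the largest differences belong to different enteroendocrine subtypes. Gip, the incretin of K cells, gave 7900 in the Ascl2 null channel and 237, 46.5 and 45.5 in the 3 control channels, a difference of 4.95. Gcg, which encodes GLP-1 in L cells, gave 4373 against 59.8, 29.2 and 21.1, a difference of 5.57. The control was well above background in 1 of its 3 channels for Gcg, the Cy3 channel that shared the spot with the bright Ascl2 null RNA. Cck, the gallbladder-contracting hormone of I cells, gave 12584 against 557, 378 and 316, a difference of 4.74. In all 3 cases the Ascl2 null channel lay far above every control channel.

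Nts (neurotensin) stood at 3.79, Sst (somatostatin of D cells) at 3.65, Tac1 (substance P) at 3.12 and Pyy, the ileal and colonic satiety peptide, at 2.52. Insl5, a hormone of distal L cells, stood at 2.21 and Ghrl (ghrelin of X cells) at 1.91, with its probes from 1.91 to 2.95. The remaining members lay under 2-fold. Nmb was 0.45, Gast 0.37 (but -1.03 Cy5 against Cy5), Pdyn and Gal 0.35, Ucn3 0.31, Ddc 0.27, Sct (secretin) 0.25, Cartpt 0.24, Adcyap1 0.16 and Penk 0.15. Tph1, the serotonin-making enzyme of enterochromaffin cells, was at -0.57, below 0 under every alternative, with 2026 in the Ascl2 null channel and 3680, 3891 and 3446 in the control channels. Sct and Tph1, which are expressed broadly or in enterochromaffin cells, therefore did not share the direction or size seen for Gip, Cck and Gcg. For Gcg, Gip, Cck and Sst the control's Cy3 signal was itself higher on the Ascl2 null array than on the self-self array (Gip 237 against 46.5, Sst 287 against 75.5). Among 17 genes at least 16-fold higher whose control Cy3 was detected, 14 showed this, with a median of 0.21 on the log2 scale, against -0.00 for genes within 2-fold. Cy5 against Cy5, Gip stood at 6.39 and Sst at 4.97.

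**Figure D2:**
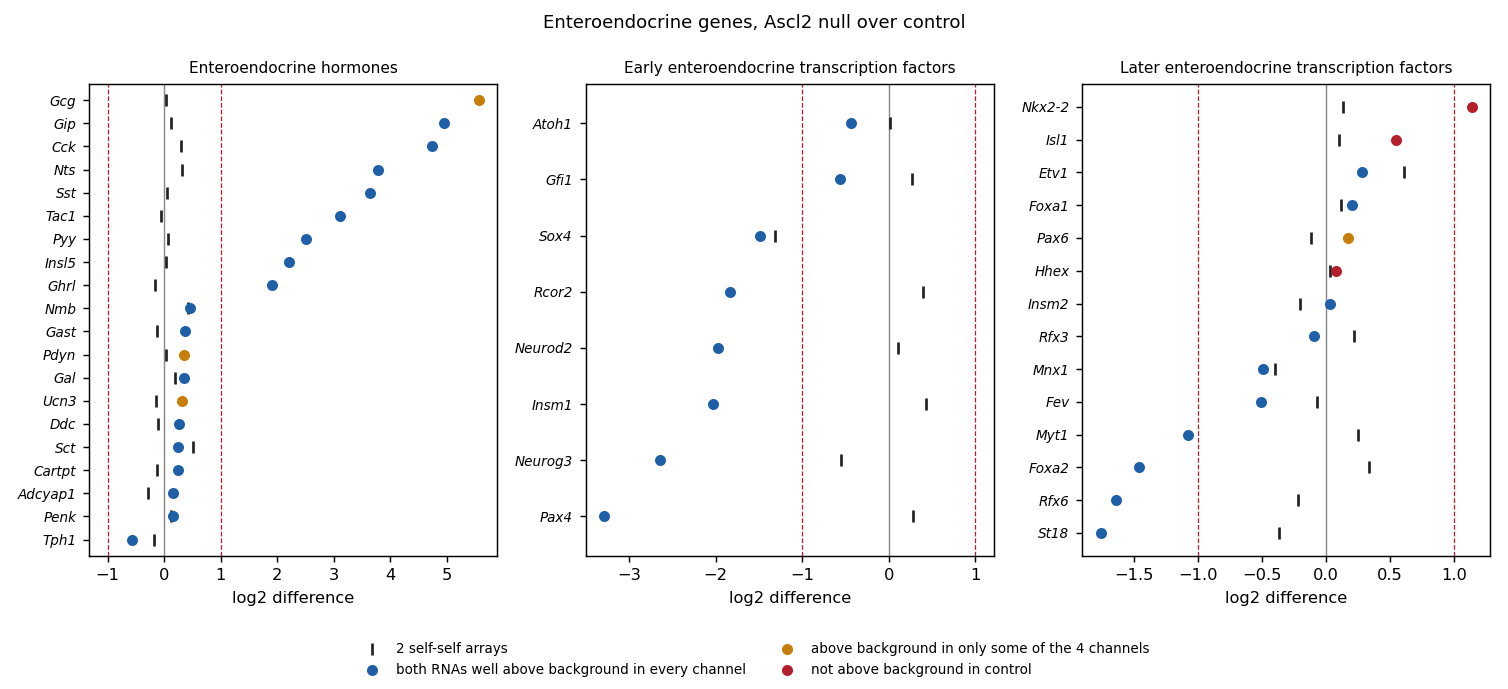
Log2 difference of each measured hormone gene, early factor and later factor (points, coloured by detection) with the same gene's value between the 2 self-self arrays (black ticks) and dashed lines at 2-fold. Hormones extend to 5.57 on the right while early factors extend to -3.29 on the left.

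**Figure D3:**
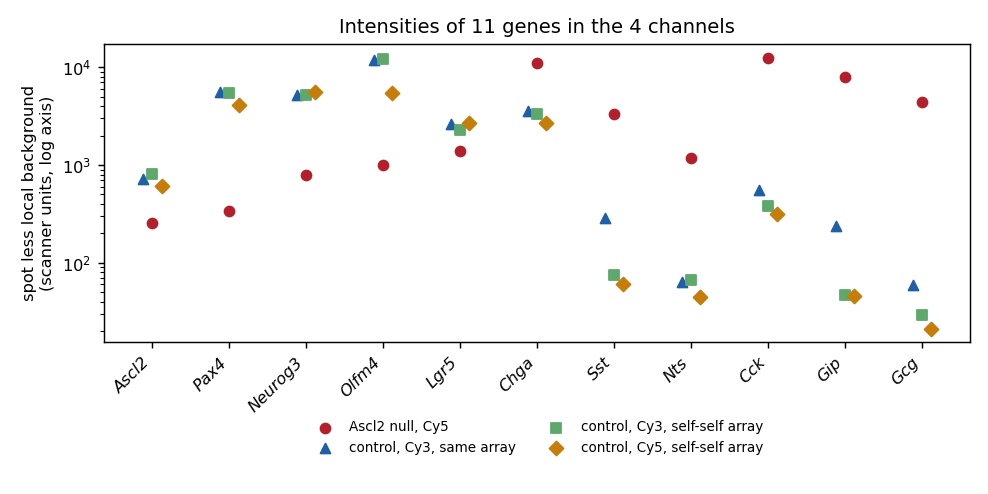
Background-subtracted intensity of 11 genes in the Ascl2 null channel and the 3 control channels, on a log axis; levels are to be compared within a gene only, since probes differ. The Ascl2 null channel lies below every control channel for Ascl2, Pax4, Neurog3, Olfm4 and Lgr5 and above every one for Chga and the 5 hormones.

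The early factors pointed the other way. Neurog3, the proneural factor that commits crypt progenitors to the enteroendocrine lineage, gave 785 in the Ascl2 null channel and 5244, 5258 and 5614 in the control channels, a difference of -2.64 and a 6.22-fold lower level. Pax4, which acts just after Neurog3, gave 340 against 5600, 5483 and 4079, a difference of -3.29. For both genes all 3 control channels lay well above the Ascl2 null channel. Insm1, a zinc-finger transcription factor of the endocrine programme, was at -2.03, Neurod2 at -1.97 and the corepressor Rcor2 at -1.84. Sox4, a progenitor factor, was at -1.49, but it was at -0.96 on the array alone, so its size is uncertain. Its technical value, which also holds the experiment 2 array, was -1.31. The factors upstream of all secretory cells were under 2-fold: Atoh1 at -0.44 and Gfi1 at -0.56.

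The later factors did not share a direction. Of 18, 14 were measured, 4 reached 2-fold downward and 1 upward, with a median of -0.03. St18 stood at -1.76, Rfx6, which is needed for many hormones, at -1.64, Foxa2 at -1.46 and Myt1 at -1.08. Foxa2 gave 2556 in the Ascl2 null channel and 11154, 11520 and 7823 in the control channels. Fev, a factor of serotonin cells, was at -0.51 and Mnx1 at -0.49. Rfx3 (-0.09) lay near 0, as did Insm2 (0.03), Pax6 (0.17), Foxa1 (0.20) and Etv1 (0.28). Nkx2-2 was well above background in the Ascl2 null RNA only and at least 2.25-fold higher, Isl1 at least 1.46-fold higher and Hhex at least 1.14-fold higher. On the 2 arrays used these 3 were detected in the Ascl2 null RNA only, so the direction of their bounds was fixed by that detection pattern. Hhex gave 26.5 in the Ascl2 null channel and its difference was 0.08. Over probes well above background in every channel the median of the later factors was -0.50, and in the authors' deposited table it was -0.45.

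Secretory granule genes followed the hormones. Of 17 genes for granule cargo and prohormone processing 14 were measured, 5 at least 2-fold higher and 0 lower, with a median of 0.33. Chga (chromogranin A), the general enteroendocrine granule protein, gave 11184 in the Ascl2 null channel and 3600, 3348 and 2705 in the control channels, a difference of 1.99. Chgb stood at 1.5, Scg3 at 1.19 and Scg2 at 1.11, and Scg5 was at least 2.38-fold higher and undetected in the control. The prohormone convertases, which cut hormone precursors, did not share this: Pcsk2 was at 0.20 and Pcsk1 at -0.34.

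The release machinery differed from the granule cargo. Of 22 measured genes for regulated exocytosis and excitability 4 were at least 2-fold lower and 1 higher (median -0.16). Rimbp2, a scaffold of release sites, was at -2.69 and Cplx2 (complexin) at -1.24, and the syntaxin Stx1a was just past 2-fold lower (-0.89 on the array alone). Syt13, a synaptotagmin, was at -2.10 by its brighter probe and -0.07 by the other, so its probes disagree. Abcc8, the sulfonylurea receptor, was at 1.39, and its probes ranged from 0.09 to 1.39. Among 12 measured nutrient-sensing receptors, the short-chain fatty acid receptor Ffar2 was at -1.74, and Ffar4 was at -0.77.

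Stem cell markers were mostly lower, with a few large exceptions. Of 30 CBC genes 28 were measured, of which 22 lay below 0 and 6 above, with a median of -0.68. At the 2-fold mark 5 were lower and 3 higher (1.58% and 2.12% over all genes). Olfm4, the secreted glycoprotein that marks CBC cells, gave 996 in the Ascl2 null channel and 11768, 12089 and 5490 in the control channels, a difference of -2.26. Its second probe gave -2.38. Both Olfm4 probes carried a dye effect on the self-self array (-0.98 and -1.03), so the array alone gave -3.24 and -3.41. Lgr5, the R-spondin receptor, gave 1386 against 2618, 2279 and 2684, a difference of -1.01, and every control channel lay above the Ascl2 null channel. Lgr5 was under 2-fold without the subtraction (-0.63), with both self-self arrays subtracted (-0.92) and Cy5 against Cy5 (-0.79).

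Scn2b, a sodium channel subunit, stood at -1.42, Ephb3, the receptor that positions cells along the crypt, at -1.18 and Lrig1, a brake on EGF receptors, at -1.04. Without the subtraction Ephb3 (-0.79) and Lrig1 (-0.99) were also under 2-fold, so that 2 of the 5 lower calls, Olfm4 and Scn2b, held on the array alone. Just under 2-fold were Mex3a at -0.99, Rnf32 at -0.95, Cdca7 at -0.90, Rgmb at -0.85 (with a probe at 0.15) and Aqp4 at -0.74. Axin2 stood at -0.70, Soat1 at -0.69, Smoc2, Slc14a1 and Clca4b at -0.68, Cdk6 at -0.62 and Sox9 at -0.61. Cdca7 had a technical value of -0.69. Prom1 (-0.47), Fgfr4 (-0.45), Tgif1 (-0.36), Znrf3 (-0.29) and Tnfrsf19 (-0.22) were closer to 0, and Slc12a2 (0.05) and Msi1 (0.31) lay on the other side. Vdr, the vitamin D receptor, was at 0.90. Igfbp4 was detected in the Ascl2 null RNA only, at least 3.69-fold higher by its brighter probe, and Nrn1 was at 2.38. Sp5, a Wnt-induced repressor, gave 1225 in the Ascl2 null channel and 41.0, 29.5 and 11 in the control channels, a difference of 4.22, with the control well above background in 1 of 3 channels. Sp5 thus ran opposite to Lgr5 and Axin2.

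Wnt targets and feedback genes were lower by less. Of 24, 21 were measured, 18 below 0, 4 at least 2-fold lower and 1 (Sp5) higher, with a median of -0.30. Over all genes 1.58% were at least 2-fold lower and 2.12% higher. Lgr5, Ephb3, Axin2 and Sp5 count in both the CBC and the Wnt list. Apcdd1, a membrane Wnt inhibitor, stood at -1.43 and the cyclin Ccnd1 at -1.3, while Myc was at -0.21 and Nkd1 at -0.23. Of 13 R-spondin receptors and Wnt pathway members, the co-receptor Lrp5 (-1.35), the Paneth cell ligand Wnt3 (-1.34) and Lgr5 were at least 2-fold lower, and Fzd5 and Wnt11 were highest at 0.82. Among TCF factors and bHLH partners 2 of 17 were at least 2-fold higher, Id1 at 1.3 and Id3 at 1.03, which encode proteins that sequester bHLH partners, while Id2 was at -0.85. Tcf7l2 gave 0.35 by its brightest probe, with a technical value of 0.72, and -0.06 and -0.35 by the others. On the array alone Wnt3 (-0.99) and Id1 (0.96) were under 2-fold.

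Notch pathway genes were all measured (24), 18 of them below 0, 4 at least 2-fold lower and 0 higher, with a median of -0.37. Over all genes 50.3% lay above 0, 1.58% were at least 2-fold lower and 2.12% higher. The fringe glycosyltransferases Mfng (-2.56) and Lfng (-1.37), which tune Notch receptors, were the lowest, followed by the ligand Dll1 (-1.24) and Hes6 (-1.19). Dll4 stood at -0.88 and the target Hes5 at -0.63. Numb was highest, at 0.26. Lfng was at -0.90 on the array alone. Mfng gave 53 in the Ascl2 null channel and 609, 608 and 651 in the control channels.

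**Figure D4:**
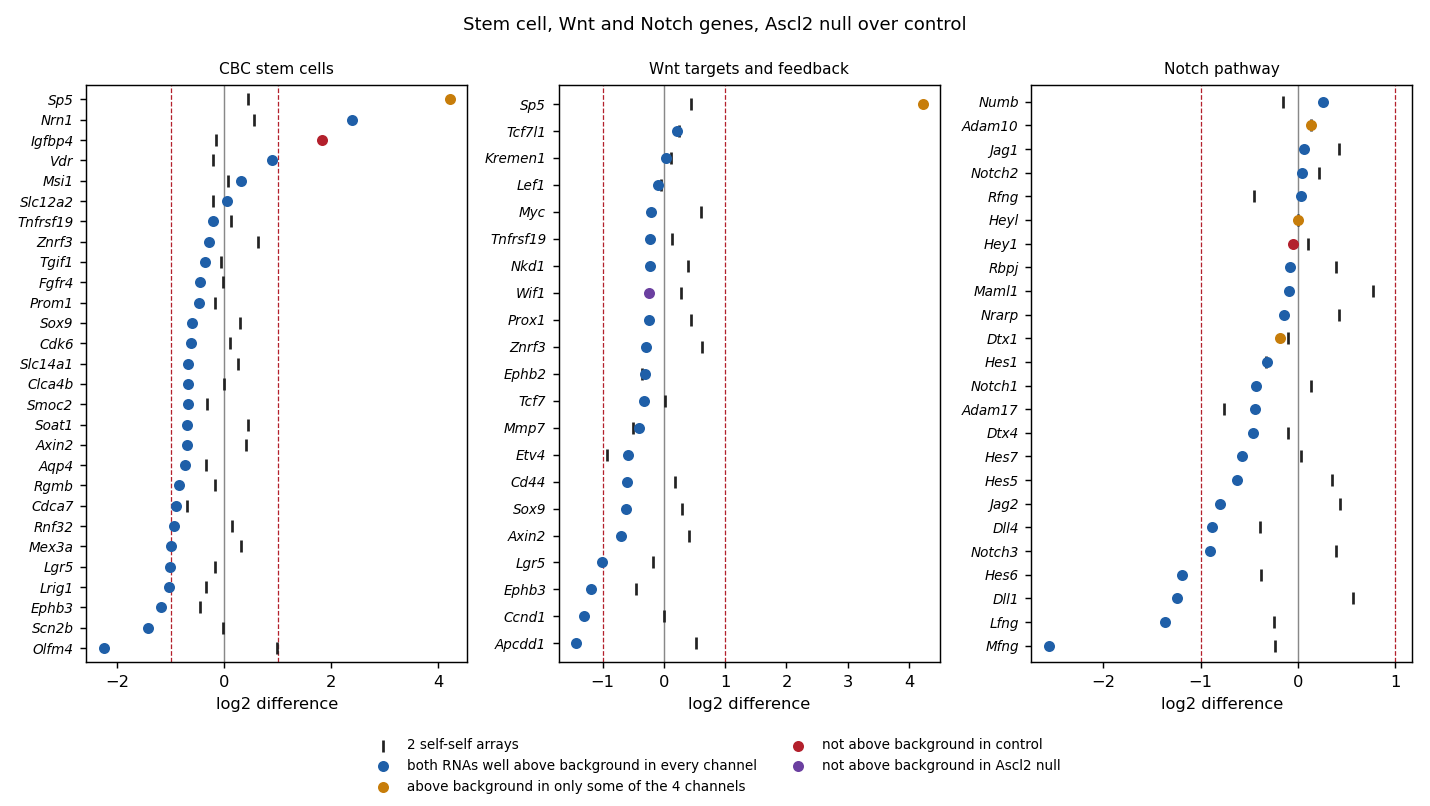
Log2 difference of each measured CBC stem cell, Wnt and Notch gene (points, coloured by detection) with its value between the 2 self-self arrays (black ticks) and dashed lines at 2-fold. Most points lie left of 0; Sp5 at 4.22 is the exception farthest to the right, and Olfm4 and Mfng lie farthest left.

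Promoter windows were read because Ascl2 binds E-boxes and several lineage genes were lower together. The E-box forms CAGCTG (a palindrome) and CAGGTG, and CTTTGAT, a form of the site for Wnt-linked TCF factors, were searched on both strands in the 250 bases before the gene start. A stretch of letters cannot match both E-box forms. RefSeq windows of GRCm38.p6 matched 12367 of 19325 genes, with 1 window a gene. CAGCTG was present in 11.9% of the measured genes' windows (13% of all 32851 windows), in 18.5% of 222 windows of genes at least 2-fold lower and in 7.02% of 285 windows of genes at least 2-fold higher. By list the CAGCTG shares did not follow the direction. CAGCTG was in 7 of 32 enterocyte, 3 of 19 hormone, 2 of 19 CBC and 2 of 6 early factor windows. In that order CAGGTG was in 7, 3, 4 and 0 windows and CTTTGAT in 0, 0, 3 and 1. The CTTTGAT matches thus lay in the lists that leaned lower, but they are few. Over the measured, lower and higher genes CAGGTG was in 16.5%, 21.2% and 21.8%, and CTTTGAT in 2.63%, 2.7% and 3.86%. Windows are shown for Neurog3, Ephb3 and Olfm4, which were lower, and for Gip, which was higher, with matches in capitals; all lie on the + strand and read 5′ to 3′, at chr10:62132840-62133089, chr16:21204545-21204794, chr14:80000052-80000301 and chr11:96024295-96024544 in that order.
Neurog3: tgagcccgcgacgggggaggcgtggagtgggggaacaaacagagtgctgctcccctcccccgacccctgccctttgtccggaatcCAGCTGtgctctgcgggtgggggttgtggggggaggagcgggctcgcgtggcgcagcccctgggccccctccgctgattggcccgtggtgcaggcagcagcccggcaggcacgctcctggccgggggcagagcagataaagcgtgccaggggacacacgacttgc
Ephb3: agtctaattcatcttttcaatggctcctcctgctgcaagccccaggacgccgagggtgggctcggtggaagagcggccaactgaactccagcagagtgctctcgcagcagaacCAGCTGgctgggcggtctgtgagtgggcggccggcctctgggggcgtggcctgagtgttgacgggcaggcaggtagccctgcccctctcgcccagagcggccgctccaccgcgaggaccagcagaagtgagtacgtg
Olfm4: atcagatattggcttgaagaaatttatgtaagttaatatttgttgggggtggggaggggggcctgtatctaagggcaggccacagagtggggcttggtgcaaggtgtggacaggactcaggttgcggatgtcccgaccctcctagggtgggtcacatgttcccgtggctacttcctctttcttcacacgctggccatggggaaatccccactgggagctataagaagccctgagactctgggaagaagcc
Gip: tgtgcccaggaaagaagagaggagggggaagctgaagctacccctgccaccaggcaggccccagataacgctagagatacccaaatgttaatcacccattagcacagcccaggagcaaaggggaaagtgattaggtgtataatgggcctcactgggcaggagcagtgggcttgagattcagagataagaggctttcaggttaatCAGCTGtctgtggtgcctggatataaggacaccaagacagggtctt
Neurog3, Ephb3 and Gip each hold 1 CAGCTG, which starts 165, 137 and 46 bases before the gene start, and Olfm4 holds 0 matches. A match occurred beside a lower level in Neurog3 and Ephb3 and beside a higher level in Gip. Windows for Pax4 and Lgr5 were not used here.

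Among the other secretory types, most goblet genes lay below 0 and most tuft genes above 0, with medians not far from the technical ones. Of 19 measured Paneth genes 2 were at least 2-fold higher and 4 lower (2.12% and 1.58% over all genes), with a median of -0.14. Defa21, a defensin, stood at 1.89 and Mptx1 at 1.27, whereas Kit (-1.35), Wnt3 and the lipase Pnliprp2 (-1.33) were lower and Sftpd was at least 2.94-fold lower. Defensins belong to a family of near-identical copies and a probe may read several. Lyz1, the lysozyme that defines the type, was at 0.22. Of 21 goblet genes 16 lay below 0, 5 at least 2-fold lower and 1 higher (median -0.36, technical median -0.24). On the array alone the median was -0.09 and 1 of the 5, Creb3l4, was at least 2-fold lower. Creb3l4 was at -1.22, Galnt12 at -1.20, the trefoil peptide Tff3 at -1.16 and the goblet factor Spdef at -1.08. The main mucin Muc2 was at 1.16 by its brightest probe and 0.04 by its lowest. Of 25 tuft genes 19 lay above 0 (median 0.19, technical median 0.04). Plcg2 (1.15) was at least 2-fold higher, Hpgds was at least 2.29-fold lower, and the defining factor Pou2f3 was not detected in the Ascl2 null RNA.

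Enterocyte genes leaned higher. All 35 were measured, 26 above 0, 8 at least 2-fold higher and 0 lower, with a median of 0.38 and a technical median of -0.05. Over all genes 50.3% lay above 0, 2.12% were at least 2-fold higher and 1.58% lower. Alpi, the brush border alkaline phosphatase, was at 2.01, the retinol carrier Rbp2 at 1.40, the fatty acid carrier Fabp2 and the apolipoprotein Apoa1 at 1.32, and Mttp, which loads lipid onto apolipoproteins, at 1.31. Apoa4 was at 1.03 and Cyp2b10 at 1.02, with technical values of -1.34 and -0.77. Lactase (Lct) was at -0.61, the fructose transporter Slc2a5 at -0.58 and Apob at -0.50 (another probe at 0.67), so digestive and lipid genes did not all share a direction.

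Some genes of the proximal gut were higher. The 2 lists used here, and that of sex-linked genes, were assembled after their values were seen. Of 10 duodenal iron and calcium genes 8 lay above 0, 4 at least 2-fold higher and 0 lower (median 0.65). Of 28 measured genes of proximal and distal identity 15 lay above 0 and 13 below, with 4 at least 2-fold higher and 4 lower (median 0.16). The ferric reductase Cybrd1 was at least 13.5-fold higher and undetected in the control (its second probe gave 0.77), the calcium carrier S100g was at 3.52 and the iron exporter Slc40a1 at 2.47, all duodenal absorption genes, while the calcium channel gene Trpv6 was at -0.89. The duodenal and pancreatic factor Pdx1 was at 2.25 (control detected in 2 of 3 channels) and the antral stomach factor Nkx6-3 at 3.93. Cdx2, which specifies intestinal identity, was at -1.76, Hoxd4 at -3.30, and Hoxd8 at least 1.62-fold and Hoxa10 at least 1.75-fold lower, while Hoxb7 was at 2.05. Gata4, a proximal factor, was at 0.19. The ileal bile acid transporter genes Slc10a2 (0.73) and Slc51a (0.91) did not run opposite to the duodenal genes. Hormones such as Gip, Cck and Ghrl are made mainly in the proximal gut and Pyy, Nts and Insl5 in the distal gut. The part of these position genes and of the sex-linked genes in the hormone, factor and enterocyte values was not tested.

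**Figure D5:**
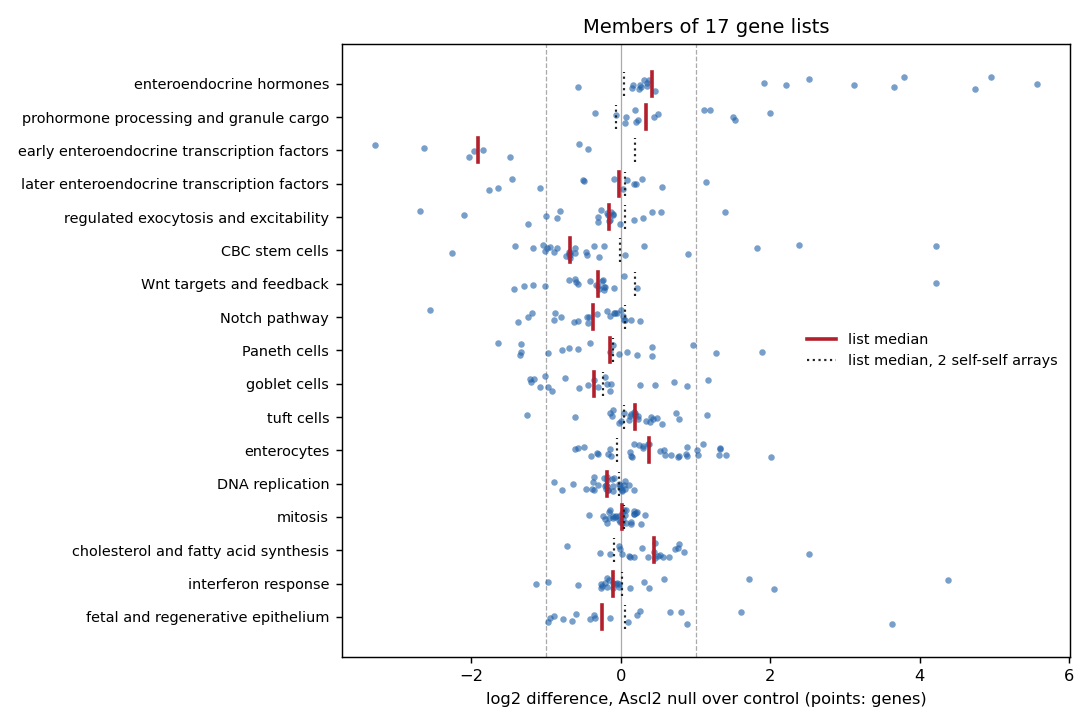
Log2 differences of the measured members of 17 gene lists (points), with the list median (solid red) and the median of the same genes between the 2 self-self arrays (dotted). The early enteroendocrine factors stand farthest left (median -1.91), and hormones reach farthest right although their median is 0.41.

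No listed replication or mitosis gene reached 2-fold, though replication genes leaned lower. With 3.7% of all genes at least 2-fold different, few or no members of lists this size would reach it. Of 32 DNA replication genes 25 lay below 0 (median -0.18, technical median -0.03, lowest Mcm7, a helicase subunit, at -0.90); Prim2, a primase gene that is no member of the list, was at -3.56. Of 30 mitosis genes 16 lay above 0 (median 0.02, from Bub3 at -0.43 to Cdk1 at 0.32). Among 21 G1 regulators the retinoblastoma gene Rb1 was at 1.68 and E2f2 at 1.05, and Ccnd1 was the one at least 2-fold lower. Cdkn1a (p21) was at -0.96 with a technical value of -0.60. None of 18 p53 targets and none of 20 stress response genes reached 2-fold, which at these list sizes is little different from the 3.7% over all genes.

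Of 14 EGF ligands and receptors Lrig1 alone reached 2-fold, near the 3.7% over all genes. Of 13 measured position 4 and progenitor genes Arg2 was at 2.26, and Lrig1 and Dll1 were at least 2-fold lower (8 of 13 below 0, median -0.60, technical median -0.18; the median was -0.21 on the array alone). Of 18 measured fetal and regenerative genes 10 lay below 0, with a median of -0.25, and 2 were at least 2-fold higher and 0 lower. The 2 were the calcium-binding gene S100a6 at 3.63 and Ccn2 at 1.61 (control detected in 2 of 3 channels). Ly6a, the marker of regenerating epithelium, was at -0.97. Of 23 interferon genes 16 lay below 0, with a median of -0.11. The immunoproteasome subunits Psmb8 (4.38, both probes over 4) and Psmb9 (1.71) and Oas1a (2.05) were higher. Ifitm3 (-1.14) was lower, with Ifit1 at -0.18 and Isg15 at -0.25. Lipid synthesis genes leaned higher: of 23, 18 lay above 0 (median 0.44, technical median -0.09), with 1 at least 2-fold higher, malic enzyme Me1 at 2.52, and Insig1 at 0.84.

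Among markers of cells outside the epithelium, mesenchymal, immune and endothelial genes stayed within 2-fold, while neuronal and glial genes did not all do so. Of 10 mesenchymal, 9 immune and 4 endothelial genes measured none was 2-fold different, against 3.7% of all genes. In that order 6, 7 and 3 were well above background in every channel, and folds of dim genes are compressed. Ptprc, Pecam1 and Des were well above background in neither RNA. Of 7 neuronal and glial genes Elavl4 was at -1.26 and S100b at 1.1, and of 14 pancreas and stomach genes Tff2 was at -1.07.

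Over all genes, the 15 highest and 15 lowest values among genes detected in both channels of the Ascl2 null array held several of the genes above. The highest was Cbr3, a carbonyl reductase, at 6.70, with 38105 in the Ascl2 null channel and 486, 321 and 227 in the control channels. Smpdl3a, an acid phosphodiesterase, followed at 5.89 and Gcg at 5.57. Then came Tmem37 at 5.39 (another probe at 2.89), Gas6, a ligand of TAM receptors, at 5.27, Fam234a at 5.2, the fetal albumin-like gene Afp at 5.08, Gip, the ribosomal-like Rps4l at 4.80 and Cck. Aldh1l1, a folate enzyme, was at 4.51, the amine oxidase Maob at 4.40, Psmb8 at 4.38, Sp5 at 4.22 and the retinol-binding protein Rbp4 at 4.08. As for Gcg and Sp5, the control was well above background in only some channels for Smpdl3a and Rps4l. Smpdl3a gave 5226 against 54, 34 and 27, and Rps4l 3462 against 81, 33 and 36.4.

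The lowest was Prim2, the large subunit of DNA primase, at -3.56, with 41.0 in the Ascl2 null channel and 1360, 1415 and 1275 in the control channels; the small subunit gene Prim1 was at -0.36. Hoxd4 (-3.30), Pax4 (-3.29) and the RNA-binding neuronal gene Celf3 (-3.16) followed. St3gal4, a sialyltransferase, was at -2.72, Rimbp2 at -2.69, Neurog3 at -2.64, Mfng at -2.56, the phosphatase Dusp26 at -2.51, the histamine receptor Hrh3 at -2.38 and the hormone-like Pthlh at -2.35. Lgals1, a galectin, was at -2.31, the oestrogen-binding receptor Gper1 at -2.30, the protease inhibitor Timp2 at -2.29 and the nuclear receptor Nr2e3 at -2.26. Most of these genes rest on 1 probe each.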

How the data were processed

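Expression was measured on Agilent 4x44K mouse arrays with 2 colours. Per the file headers, the deposited scanner files hold spot and local background intensity values for 45018 spots (1639 controls) and a log10 ratio of Cy5 over Cy3, made by the authors with Agilent Feature Extraction 10.5.1.1. The value table the authors deposited gives log2 ratios, which for both arrays used equal the scanner ratio, Cy5 over Cy3 (100% within 0.02, median 0), with no further centring. Median intensities were corrected with normexp (offset 50), which compresses folds of dim genes, and normalised by loess within each array (R 4.3.3, limma 3.58.1), which hides a shift of all genes. Outlier spots were dropped, and the spots of each probe were averaged. Of 41174 probes, 27589 had a channel well above background on at least 2 of 8 arrays. Probes were named by their own accession (26918) or another one (111) in RefSeq's GRCm38.p6 table, or kept the array's name (14145); coordinates are the array's mm9, apart from the promoter windows. The brightest probe stood for each gene; 6004 of 19325 genes had 2 or more, and 17 of the 231 such genes in the lists or ranks had probes more than 1 log2 unit apart.

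No test was run, since each group has 1 array; precision is limited by the number of arrays. Members and 32 of the gene lists were chosen with earlier results of these data known, and 6 lists after the values were seen. Genes named are Ascl2, all measured hormones, enteroendocrine factors and CBC genes, genes among the 3 highest and 3 lowest of other lists, and the 15 highest and lowest overall with a plain symbol, detected in both channels of the Ascl2 null array and at least 2-fold without subtraction and in the authors' table. Others named beside them were chosen after their values were seen. A few list members are not reported here and were left out of the counts and medians of their lists. The normalisation was tested on simulated data, with the same dye bias per probe on both arrays and changes placed in bright probes only. That setting could not test dye effects that differ between arrays, or dim genes. Alternatives were no subtraction, both self-self arrays subtracted, median centring, the scanner ratio, the authors' table, Cy5 against Cy5, stricter detection and the median over probes.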

Additional observations from a re-analysis of the deposited data

How the results depend on the processing

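No paired analysis was possible because each group has 1 array. The count of genes at least 2-fold higher was 1064 with the scanner ratio and 854 in the authors' deposited table, and that of genes at least 2-fold lower 979 and 880; the cause was not tested. In that order, 406 and 374 of the 410 higher genes and 300 and 300 of the 305 lower genes were shared. Cy5 against Cy5 gave 489 lower genes. The hormone median of 0.41 was 1.23 with the scanner ratio, 0.90 in the authors' table and 0.81 Cy5 against Cy5. Under the remaining settings these counts stayed within 1.5 times and the medians of hormones, early factors, CBC genes and enterocytes within 0.33, the SD of the technical comparison. The later factors' median of -0.03 was -0.50 over probes well above background in every channel, -0.45 in the authors' table and 0.12 Cy5 against Cy5, and that of position 4 genes -0.21 on the array alone. Some other list medians near 0 turned sign: Paneth genes (0.08 on the array alone), EGF genes (-0.02 on the array alone), immune genes (-0.00 Cy5 against Cy5), and neuronal and glial genes (-0.07 on the array alone, -0.23 by the scanner ratio, -0.19 in the authors' table and -0.31 Cy5 against Cy5). Medians within 0.1 of 0 also turned sign for nutrient receptors (-0.15 in the authors' table), mesenchymal genes (-0.14 Cy5 against Cy5), BMP genes (-0.07), TCF factors (0.01), G1 regulators (0.04), mitosis (-0.02) and stress response genes (-0.09); the cause was not tested. Among genes named from the 32 earlier lists or the ranks, 93 were at least 2-fold different. None of these turned sign under any of the 8 alternatives that gave a value. The ranked genes had to be at least 2-fold without subtraction and in the authors' table, so those settings could hardly turn them. Genes named only from the 6 lists assembled after their values were seen were not checked. Without subtraction, 340 of the 410 higher and 219 of the 305 lower genes were still at least 2-fold. Signal near background limits the values of 250 genes detected only in Ascl2 null and 274 detected only in the control.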

Other observations

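Genes of glutathione, aldo-keto and carbonyl metabolism, a group assembled after its values were seen, were higher in Ascl2 null organoids in 27 of 27 members (50.3% over all genes). In this group 14 were at least 2-fold higher (2.12% over all genes), with a median of 1.12 and a technical median of 0.11. Beside Cbr3 and Aldh1l1, the aldo-keto reductases Akr1b8 (2.75) and Akr1b7 (2.26), the glutathione transferases Gsta4 (2.04), Gstm1 (1.85), Gstm3 (1.68), Gsta2 (1.62) and Gsta1 (1.52) and the quinone reductase Nqo1 (1.92) led it. The transferases are close paralogs and a probe may read more than 1 of them. Hmox1 (0.16) and Txnrd1 (0.24) were among the lowest members.

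Fatty acid oxidation and PPAR target genes, also grouped after their values were seen, lay above 0 in 21 of 21 members (50.3% over all genes). In this group 4 were at least 2-fold higher (2.12% over all genes), with a median of 0.52 and a technical median of 0.03. Angptl4, a secreted lipase inhibitor, was at 4.07, Vnn1 at 2.42 and Ehhadh at 1.14. Of 14 antimicrobial and luminal lectin genes, again grouped after their values were seen, 5 were at least 2-fold higher and 0 lower, with Dmbt1 at 3.66, Reg1 at 2.67 and Mbl2 at 2.56, whereas Reg3a (-0.11) and Reg3g (0.15) were level.

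Of 8 genes on the Y chromosome, 4 were detected in the control RNA only, and on chromosome X 19 of 587 genes were at least 2-fold different (3.24%), against 3.7% of all genes.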
